A study of Rattus norvegicus with 2 samples.

Results

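The alcohol dehydrogenases (ADH) and aldehyde dehydrogenases (ALDH) of the liver were followed across a low-fat and a high-fat diet in rat. The set held 8 genes, 3 ADH genes (Adh1, Adh4 and Adh5) and 5 ALDH genes (Aldh1a1, Aldh2, Aldh3a2, Aldh7a1 and Aldh9a1), out of 10411 genes with a single symbol on the array. Members were found by symbol in the platform annotation. This matched 7 of them directly, and the remaining one, Adh1, through a synonym, since the annotation lists that gene as Adh1c. Each member had 1 probe set, the group of short array probes that reports 1 transcript, so the set comprised 8 of 15866 probe sets.

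The study hybridised total RNA from liver to 2 arrays, 1 for a rat labelled low-fat and 1 for a rat labelled high-fat. Both groups were SD rats described as 4 weeks old with 9 weeks of feeding, and both diets were based on AIN93G, a purified diet in common use for laboratory rodents. The question was how liver transcripts differ with the fat content of the food. A single array stood for each diet, so differences could not be checked on replicates or tested, and every value describes these 2 arrays only. How many animals contributed to each RNA, their sex, how much fat each diet held and whether the rats had been fasted is not given in the sources used here.

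ADH enzymes oxidise alcohols, among them ethanol and retinol, to aldehydes, and ALDH enzymes oxidise the aldehydes on to acids. Both steps pass electrons to NAD and form NADH. In liver the best known route runs from ethanol through acetaldehyde to acetate. The same families handle retinal, the fatty aldehydes released from membrane lipids, formaldehyde, and aldehydes formed in lysine breakdown and carnitine synthesis.

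Values are the deposited signal intensities, which are linear and carry no unit. The floor of each array was its median signal (low-fat, 15.7 and high-fat, 14), and a probe set counted as measured when its mean log2 signal was at or above the average of these floors. From each log2 ratio (high-fat over low-fat) the median of all 7864 measured probe sets, -0.12, was subtracted. Higher and lower refer to the sign of this centred ratio. Beta-actin, a control for RNA integrity, had a 3′ signal 2.69 times its 5′ signal with the low-fat diet and 2.85 times with the high-fat diet, and the part of RNA quality in the results was not tested. All 11 hepatocyte markers on the array were measured, with albumin (Alb) at 9119.2 and 9255.6. All 11 had centred ratios above 0, from 0.03 to 0.26, with a median of 0.14. Without centring 8 of 11 were above 0 with a median of 0.02, and with loess 7 of 11 with a median of 0.03.

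Among the dehydrogenases, Aldh1a1 was higher and Adh4 lower on the high-fat array, each by a little over 1.5-fold, and the other 6 genes lay within 0.25 of 0 on the log2 scale. All 8 were above both floors, with signals from 167.3 to 4629.9 with the low-fat diet and from 135.5 to 4734.5 with the high-fat diet. After centring, 4 were higher and 4 lower, and the median log2 ratio was -0.05 against 0 over all measured probe sets. At 1.5-fold or more, 1 of 8 was higher, as were 4.29% of measured probe sets, and 1 of 8 was lower, as were 5.52%. None reached 2-fold in either direction, which 0.776% of measured probe sets did upward and 0.903% downward. With 8 members, 1 gene in each direction is too few to set the family apart from these shares. In bulk liver RNA, fewer cells of a type and less RNA per cell cannot be told apart.

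**Figure D1:**
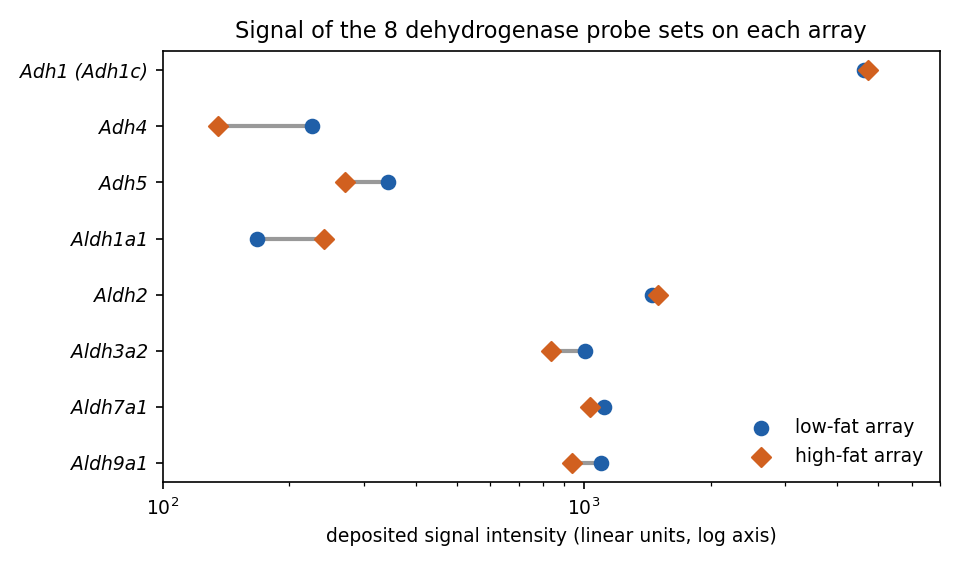
Deposited signal (linear units on a log axis) of each dehydrogenase probe set, with a circle for the low-fat array and a diamond for the high-fat array, 1 array per diet and so no error bar. Adh4 shows the longest line to the left (226.0 to 135.5) and Aldh1a1 the longest to the right (167.3 to 241.9), while both symbols of Adh1 and of Aldh2 nearly coincide.

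The 3 ADH genes differed in their ratios. Adh1, the class I enzyme that carries out most hepatic ethanol oxidation, had signals of 4629.9 with the low-fat diet and 4734.5 with the high-fat diet. Its centred log2 ratio was 0.15, or 1.11-fold higher, and without centring the arrays differed by 1.02-fold. Adh4, the class II enzyme, which also oxidises retinol and omega-hydroxy fatty acids, went from 226.0 to 135.5. That was 1.54-fold lower after centring (log2 ratio -0.62) and 1.67-fold lower in the signals as deposited. Adh5, the class III enzyme that oxidises the glutathione adduct of formaldehyde and reduces S-nitrosoglutathione, lay between these, at 342.1 and 271.6 (log2 ratio -0.22, 1.16-fold lower). The median of the 3 was therefore that of Adh5.

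Among the ALDH genes that act on retinal and acetaldehyde, only Aldh1a1 was past 1.5-fold. Aldh1a1, the cytosolic enzyme that makes retinoic acid from retinal, went from 167.3 to 241.9, a log2 ratio of 0.65 and 1.57-fold higher. In the signals as deposited the same probe set was 1.45-fold higher. Aldh2, the mitochondrial enzyme that clears most of the acetaldehyde made from ethanol, had 1454.0 with the low-fat diet and 1498.7 with the high-fat diet, a log2 ratio of 0.16. Adh1 and Aldh2, which act one after the other on ethanol, thus had nearly the same ratio, and the difference between them was -0.01. Both ratios lay inside the range of the hepatocyte markers, 0.03 to 0.26. Bright probe sets in general were somewhat above 0. The 500 measured probe sets nearest in mean signal had a median ratio of 0.06 for Adh1 and 0.05 for Aldh2. With loess, Adh1 was at 0.03 and Aldh2 at 0.09.

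The 3 ALDH genes of lipid and amino acid aldehydes were close to 0. Aldh3a2, the microsomal enzyme for long-chain fatty aldehydes, had signals of 1005.1 and 835.5 and a log2 ratio of -0.15. Aldh9a1, which forms gamma-butyrobetaine on the way to carnitine, had 1096.8 and 937.7 and a ratio of -0.11. Aldh7a1, which oxidises the semialdehyde of lysine breakdown, had 1114.2 and 1033.1 and a ratio of 0.01. The sign of Aldh7a1 turned with the scaling and was negative under 6 of 8 alternatives. The median of the 5 ALDH genes was 0.01, the value of Aldh7a1.

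The spread of other probe sets at like signal gives a scale for these ratios, although it is a spread between transcripts and not between animals. Among the 500 measured probe sets nearest to Adh4 in mean signal, 10 had a lower ratio and 490 a higher one, and their robust SD was 0.21. Among the 500 nearest to Aldh1a1, 14 had a higher ratio and 486 a lower one, with a robust SD of 0.23. Adh5 had 71 of its 500 neighbours below it, Aldh3a2 66 and Aldh9a1 91. Aldh7a1 sat near the middle, with 215 neighbours below and 285 above. Aldh2 had 138 neighbours above it and Adh1 150, but few probe sets reach the signal of Adh1, and its neighbours reached down to a low-fat signal of 513.7. Over the 1463 probe sets with a mean signal inside the members' range, 2.94% were higher by 1.5-fold or more and 1.98% were lower by as much.

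**Figure D2:**
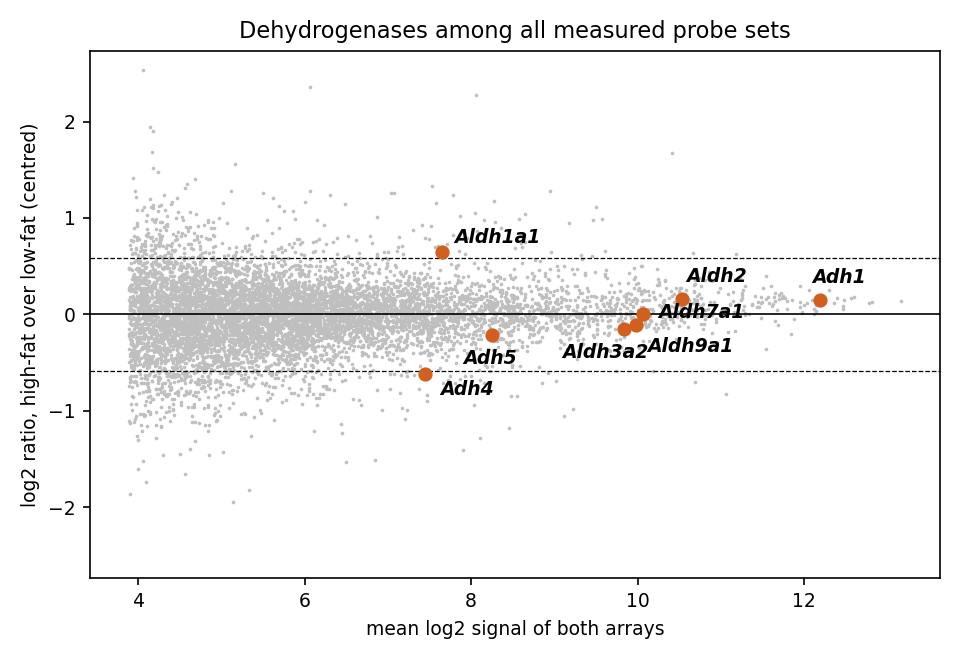
Centred log2 ratio (high-fat over low-fat) against the mean log2 signal of both arrays, for the 7864 measured probe sets (grey) and the 8 dehydrogenases (orange), with dashed lines at 1.5-fold. Aldh1a1 (0.65) lies just above the upper line and Adh4 (-0.62) just below the lower one, and the other 6 lie between -0.22 and 0.16.

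Differences between 2 members on the same arrays do not depend on a constant array-wide scaling factor. They do depend on scaling that varies with signal. With loess, Adh1 was at 0.03 and Adh4 at -0.63, against 0.15 and -0.62 as reported. The differences below are without such scaling. The difference between the log2 ratios of Aldh1a1 and Adh4 was 1.27, so that Aldh1a1 signal relative to Adh4 signal was 2.41-fold larger on the high-fat array. Adh1 exceeded Adh4 by 0.77, Aldh2 exceeded Adh4 by 0.78, and Adh5 exceeded Adh4 by 0.41. Aldh1a1 exceeded Aldh2 by 0.49 and Aldh7a1 by 0.64. For comparison, 696 genes had a second measured probe set, and the 2 log2 ratios of such a gene differed with an SD of 0.42 and a 95th percentile of the absolute difference of 0.845. Of the 28 pairs of members, 2 were farther apart than that, both of them with Aldh1a1, and 1 of these was the pair with Adh4. Some same-gene pairs pass this cutoff by its definition, and it was taken over all measured signals. The count of 2 in 28 therefore sets no member apart. No member had a second probe set against which its own ratio could be checked.

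The other measured genes of the ADH and ALDH families were near 0 as well. Of 19 listed, 9 were on the array and 5 measured, with 2 higher, 3 lower and none past 1.5-fold. Their median log2 ratio was -0.003, and its sign turned under 4 of 10 alternatives. Aldh6a1, the methylmalonate semialdehyde dehydrogenase of valine breakdown, was at 0.22 (621.6 and 668.8), with 0.10 for its other probe set, and Aldh16a1 was at 0.11. Adh7, the stomach ADH, was at 0.3 and 5.4 and Aldh3a1, the corneal ALDH, at 5.7 and 4.6, below the floor on both arrays. Aldh1a2, a second retinal dehydrogenase, was at 19.7 with the low-fat diet and 9.8 with the high-fat diet, and Aldh18a1, of proline synthesis, at 6.7 and 5.0, and neither counted as measured.

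The genes of the other ethanol-oxidising enzymes, Cyp2e1 and Cat, lay close to Adh1 and Aldh2. Their list also held Acss1 and Acss2, of acetate use, and Sult1a1, a sulfotransferase gene at 0.11. Of its 4 measured genes, 3 were higher, 1 lower and none past 1.5-fold, with a median of 0.11 that became -0.01 without centring. Cyp2e1, the microsomal ethanol oxidase, went from 3280.4 to 3377.0 (0.16), and Cat, the peroxisomal catalase, was at 0.10. Acss2, which activates acetate to acetyl-CoA in the cytosol, was on the other side at -0.39, from 154.1 to 108.5. Acss1, its mitochondrial counterpart, was not measured, at 3.4 and 0.5.

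In retinol and retinoic acid metabolism, the genes around Aldh1a1 went both ways. Of 13 measured, 7 were higher and 6 lower, and the list's median, 0.08, was negative under 4 alternatives. Rarb, a retinoic acid receptor gene, was at least 1.5-fold higher (0.65, from 61.7 to 89.5), against 4.22% of measured genes, and no gene was as far lower, against 5.44%. Chosen after their values were seen, Bco1, which cleaves beta-carotene to retinal, was at 0.49 and Rxra, the partner receptor, at -0.45. The high-fat value of Rxra, 17.8, was near the floor. The retinol dehydrogenase genes Rdh7, Rdh10, Rdh11 and Rdh16 were at 0.08, 0.20, -0.33 and -0.30, also picked for context after the fact. Cyp26a1, which degrades retinoic acid, was below both floors, at 5.4 and 4.1.

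Other enzymes that clear aldehydes had the widest span of ratios among the 11 pathway lists. Of 13 measured, 8 were higher and 5 lower, 1 of each past 1.5-fold, against 4.22% of measured genes higher and 5.44% lower, and the median was 0.005. Aox1, the aldehyde oxidase, was at 0.98, from 211.4 to 383.7. Cbr1, a carbonyl reductase, was at -1.05, from 37.6 to 16.7, with the high-fat value near the floor. Esd, which hydrolyses the S-formylglutathione that Adh5 forms, was at 0.005, beside -0.22 for Adh5 itself.

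Genes of the pathways in which Aldh7a1, Aldh9a1 and Aldh3a2 act, before or after the ALDH step, had ratios below 1.5-fold. In lysine breakdown and carnitine synthesis 3 of 8 measured genes were higher and 5 lower, none past 1.5-fold, with a median of -0.06. The largest were Tmlhe, the first enzyme of carnitine synthesis, at -0.32, and Aadat, the aminotransferase that acts after Aldh7a1 in lysine breakdown, at -0.29. Among choline, betaine and sphingolipid genes 3 of 4 were higher, with a median of 0.08. Bhmt, the methyltransferase that uses betaine, was at 0.21. Of the listed sphingolipid genes only Sphk2, a sphingosine kinase, was measured, at 0.09, and it is named for that reason. Sardh, the sarcosine dehydrogenase, was at -0.14, with 0.10 for its other probe set.

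Genes of the NADH shuttles and of NADH reoxidation, which handle the NADH that ADH and ALDH form, were lower in 6 of 9 measured and higher in 3. Their median was -0.19 and ranged from -0.30 to -0.18 over the alternatives. No centring and centring on control probe sets only lower this median by a common shift, so these runs could not turn its sign. Got1, the cytosolic aspartate aminotransferase of the malate-aspartate shuttle, was the 1 member of 9 past 1.5-fold, at -0.98, from 872.5 to 407.6, where 5.44% of measured genes were as far lower. Its mitochondrial partner Got2 was at 0.15. Picked after their values were seen, Gpd1, of the glycerol phosphate shuttle, was at -0.47 and -0.44 on its probe sets, and Mdh1, the cytosolic malate dehydrogenase, at -0.36 and -1.21. Listed Nrf2 targets, the oxidant and electrophile response genes, had 5 of 8 higher, 3 lower and none past 1.5-fold, with a median of 0.03, led by Nqo1 at 0.32 and Gclm at 0.28.

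**Figure D3:**
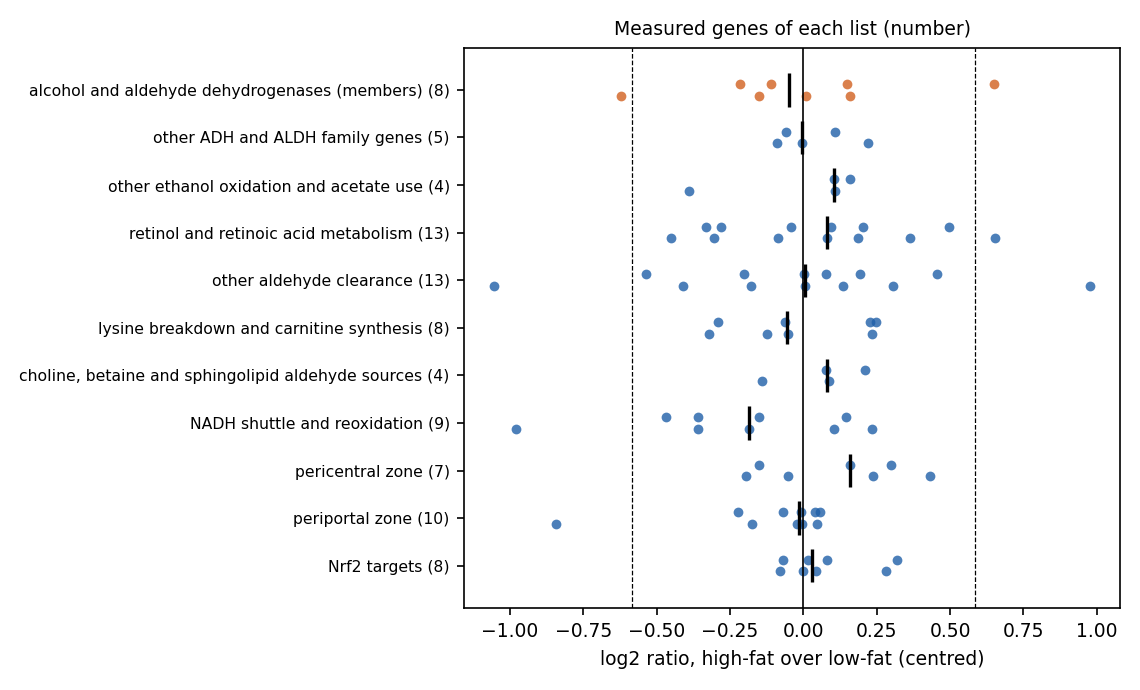
Centred log2 ratio (high-fat over low-fat) for the measured genes of each list, 1 point per gene, with the number measured in brackets, a black bar at the list's median and dashed lines at 1.5-fold. The dehydrogenases (orange) spread from -0.62 to 0.65 around a median of -0.05, and the NADH shuttle list has the lowest median, -0.19.

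Several of these enzymes are unevenly distributed between the zones of the liver lobule, so zone markers were read beside them. Of 7 measured pericentral markers, 4 were higher, none past 1.5-fold, with a median of 0.16 that ranged from 0.035 to 0.295 over the alternatives. Values of 0.28 and 0.295 came with the floor at the 25th percentile and with no floor, where genes not counted as measured enter. With a gene's median probe set ratio the median was 0.06. Slco1b2, an uptake transporter, was at 0.43 (0.71 for its other probe set), and Glul, the glutamine synthetase of the innermost pericentral hepatocytes, was at 0.30, -0.12 and 0.06 on its 3 probe sets. Aldh3a2 and Cyp2e1 are themselves on this list, and its median is the value of Cyp2e1. Of 10 periportal markers, 7 were lower and 3 higher, their median was -0.015, and Hsd17b13, a lipid droplet protein, was the 1 past 1.5-fold lower, at -0.84, against 5.44% of measured genes. The part of lobular zones in the ratios of Adh4 and Aldh1a1 was not tested.

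Markers of other liver cells were read on both scales. In the signals as deposited, which keep the array-wide shift of -0.12, the 9 measured macrophage markers summed to 1673.3 with the low-fat diet and 1484.0 with the high-fat diet, 3 endothelial markers to 336.1 and 303.9, 6 stellate cell and fibroblast markers to 470.0 and 361.6, and the 11 hepatocyte markers to 44655.6 and 45528.3. On the centred scale the macrophage markers had a median of 0.01 (-0.01 with loess), with 5 of 9 higher (4 of 9 with loess), Cd14 at 0.50 and C1qc at -0.31. The endothelial markers had a median of -0.03, with Lyve1 at -0.39 and Eng at 0.33. Stellate cells store retinol, and 5 of their 6 measured markers were lower, with a median of -0.27, 2 of them by 1.5-fold or more, against 5.44% of measured genes. Vim was at -0.59 and Col1a2, below the floor on the high-fat array, at -1.06, with its second probe set at 0.07. Lrat, which esterifies retinol for storage, was at -0.28. None of the 6 lymphocyte markers on the array was measured, nor were the cholangiocyte markers Krt19, Krt7 and Spp1. The 1 measured cholangiocyte marker, Epcam, was at -0.17. The red cell markers Hbb and Alas2 were at 0.08 and 0.195, and the 1 measured adipocyte marker, Cfd, at 0.02. Whether cell composition had a part in the ratios of Aldh1a1 and Adh4 was not tested.

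The sizes of the 2 ratios past 1.5-fold rested on the processing, while their signs did not turn in any alternative run. No centring, centring on control probe sets and the changed floors only shift all member ratios by a common amount. The largest such shift, -0.12 without centring, was small beside these 2 ratios, so these runs could not turn their signs. Adh4 ranged from -0.74 to -0.51 over 8 alternatives and was past 1.5-fold in 7, all but the pseudocount of 50. Aldh1a1 ranged from 0.49 to 0.68 and was past 1.5-fold in 6, but not without centring, at 0.53, or with a pseudocount of 50, at 0.49. Adh1 ranged from 0.03 to 0.18 and Aldh2 from 0.04 to 0.19. Adh5 stayed between -0.33 and -0.19, Aldh3a2 between -0.27 and -0.12, and Aldh9a1 between -0.23 and -0.08.

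**Figure D4:**
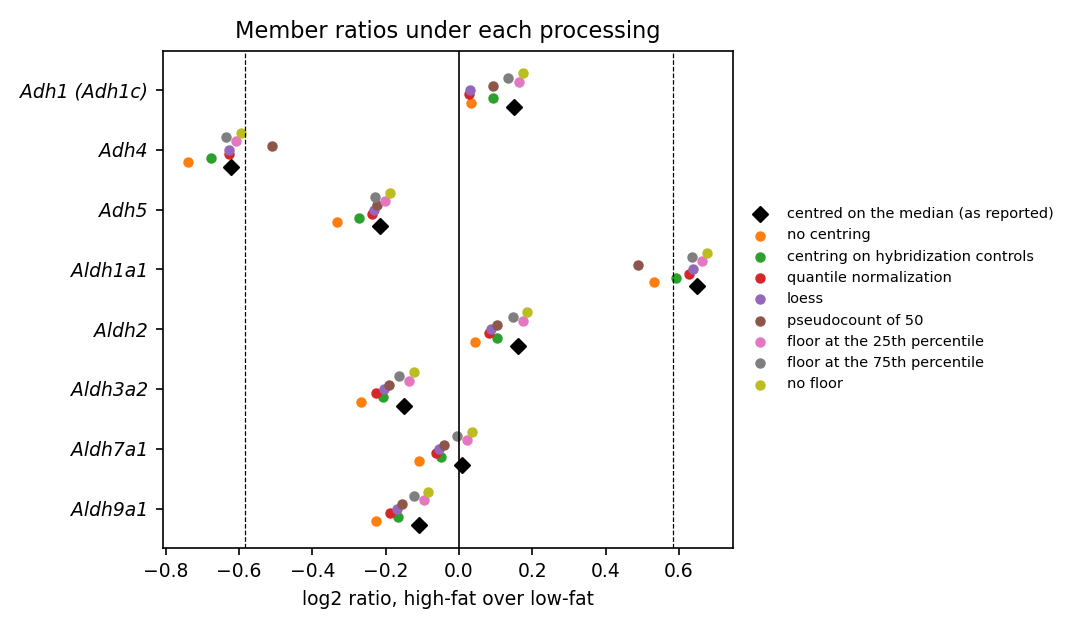
High-fat over low-fat log2 ratio for each dehydrogenase as reported (black diamond) and under 8 other processings (coloured circles), with dashed lines at 1.5-fold. Adh4 and Aldh1a1 keep their side of 0 throughout but straddle the lines, and Aldh7a1 crosses 0 (-0.11 to 0.04).

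Adh4 lies in a run of ADH genes. In the RefSeq order of genes on chromosome 2 of assembly GRCr8, Adh7, Adh1c, Adh6a, the pseudogene Adh1-ps1, Adh6, Adh4 and Adh5 follow each other with only non-coding RNA genes between them. Of these Adh7, Adh1c, Adh4 and Adh5 had a probe set. Adh4 and Adh5 are direct neighbours. Genes of this cluster are similar in sequence, as are Aldh1a1 and the rat gene Aldh1a7, and the probe sequences were not analysed here, so signal from a related transcript cannot be set aside for these members.

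Promoter sequences are shown for the 2 members past 1.5-fold and for the 2 other cluster members in the set, so that the genes with the lowest and the highest ratio can be read beside Adh1 and Adh5. The arrays carry no promoter measurement. Each is the RefSeq window of GRCr8 from 250 bases before to 50 after the annotated start, 5′ to 3′ on the gene's strand, which is plus for all 4. The windows are chr2:229470453-229470752 for Adh1c, chr2:229621842-229622141 for Adh4, chr2:229648307-229648606 for Adh5 and chr1:227537370-227537669 for Aldh1a1. Capitals mark matches on either strand to ATAAAA, which resembles a TATA box, to the box named CCAAT, to GGGCGG, known as the GC box, and to the octamer ATGCAAAT, motifs that were chosen after the sequences had been seen. No 2 matches in these windows overlap.
Adh1c: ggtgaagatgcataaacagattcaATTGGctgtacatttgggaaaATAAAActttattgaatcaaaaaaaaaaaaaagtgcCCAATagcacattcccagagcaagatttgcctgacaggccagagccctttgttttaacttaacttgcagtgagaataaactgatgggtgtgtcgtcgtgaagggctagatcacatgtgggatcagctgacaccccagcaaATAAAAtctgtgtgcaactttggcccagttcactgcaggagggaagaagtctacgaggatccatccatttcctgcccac
Adh4: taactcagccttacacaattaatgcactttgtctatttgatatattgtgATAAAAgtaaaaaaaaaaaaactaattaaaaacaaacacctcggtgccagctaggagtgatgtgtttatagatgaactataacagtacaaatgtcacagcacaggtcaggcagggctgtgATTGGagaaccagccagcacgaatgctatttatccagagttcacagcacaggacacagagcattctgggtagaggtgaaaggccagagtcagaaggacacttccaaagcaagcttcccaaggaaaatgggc
Adh5: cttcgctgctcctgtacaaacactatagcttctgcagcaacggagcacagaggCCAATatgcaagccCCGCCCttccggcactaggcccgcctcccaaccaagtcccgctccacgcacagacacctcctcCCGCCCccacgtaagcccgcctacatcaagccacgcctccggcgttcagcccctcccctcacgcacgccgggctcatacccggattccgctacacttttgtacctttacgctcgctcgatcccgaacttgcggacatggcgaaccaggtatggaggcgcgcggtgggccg
Aldh1a1: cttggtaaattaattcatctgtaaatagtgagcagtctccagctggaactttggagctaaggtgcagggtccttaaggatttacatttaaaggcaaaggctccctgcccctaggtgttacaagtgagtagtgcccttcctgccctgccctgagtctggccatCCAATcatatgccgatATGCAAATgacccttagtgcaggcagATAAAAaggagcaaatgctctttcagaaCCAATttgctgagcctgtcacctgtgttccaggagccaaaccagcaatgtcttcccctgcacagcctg

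The 4 windows fell into 2 kinds by base composition. Those of Adh1c, Adh4 and Aldh1a1 had 43.3%, 41.3% and 48.3% GC with 3, 2 and 1 CpG dinucleotides, below the medians of 52.3% GC and 7 CpG over 27457 rat promoters of the same length. That of Adh5 had 63.7% GC and 28 CpG. A TATA-like match began 29 bases before the start in Adh1c, where a TATA box usually lies, 46 bases before it in Aldh1a1 and 201 bases before it in Adh4, and Adh5 had none. This motif was present in 20.4% of all promoters, the CCAAT box in 37.7%, the GC box in 34.9% and the octamer in 1.64%. The octamer match in Aldh1a1 began 72 bases before the start, between CCAAT matches at 88 and 18. Adh5 held 2 GC boxes and the other 3 windows held none.

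Of the 8 members, 7 had a RefSeq promoter entry, all but Aldh2. Aldh3a2, Aldh7a1 and Aldh9a1 were like Adh5, with 60.3%, 70.3% and 67.7% GC, at least 1 GC box each and no TATA-like match. CCAAT was found in every one of the 7 windows, against 37.7% of all promoters. That count cannot be read as enrichment, since the motifs were chosen after the sequences had been seen. The members with GC-rich windows, Adh5, Aldh3a2, Aldh7a1 and Aldh9a1, had log2 ratios from -0.22 to 0.01. Those with a GC content below the promoter median had 0.15 (Adh1), -0.62 (Adh4) and 0.65 (Aldh1a1). Adh4 and Aldh1a1 also had the lowest signals of the 8 members, and a link between window and ratio was not tested. The comparison is a description of 7 genes, and a match is not evidence of a bound site.

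**Figure D5:**
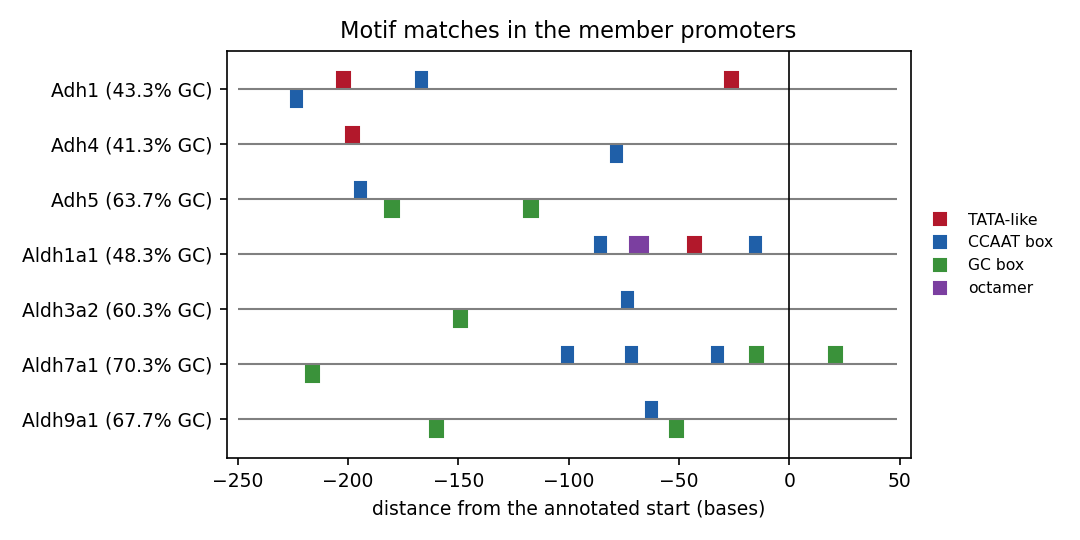
Matches to 4 motifs in the promoter windows of 7 dehydrogenase genes, by distance in bases from the annotated start at 0, with plus-strand matches drawn above each line and minus-strand matches below it, and the GC content in brackets. The TATA-like matches lie in Adh1, Adh4 and Aldh1a1, and the GC boxes in Adh5, Aldh3a2, Aldh7a1 and Aldh9a1.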

How the data were processed

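Liver RNA of 2 rats' diets was measured on 1 array each. For every probe set the authors deposited an intensity on each array. How they went from image to intensity is not given in the sources used here. Values have no negatives and reach 9255.6, and were therefore taken as linear. No detection calls were used.

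Of 15923 probe sets, 57 controls and 4 with a 0 on an array were left out. Signals were taken as log2 with no pseudocount, and the median ratio of measured probe sets was subtracted. Of the 15866 probe sets that are no controls, 12783 had 1 gene symbol, 312 several and 2771 none here. A gene in a list was represented by its measured probe set of highest mean signal. Groups came from the sample titles. No test of diet was possible.

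The members and the 11 pathway and 8 marker lists were chosen with earlier results of these data known. All members were to be named, and from each pathway list the genes past 1.5-fold or, failing these, up to 2 of largest ratio. Marker lists had no naming rule, and the markers named were chosen after their values were seen. A few genes beyond this rule are given for context: Cat, Sult1a1, Got2, Esd, Lrat, Alb, second probe sets and genes named as chosen after their values were seen, and list members below the floor. Alternatives were no centring, centring on 18 hybridization controls (median log2 ratio -0.06), quantile normalization, loess (span 0.4) and a pseudocount of 50. The floor was also set at the 25th or 75th percentile or left out. Counts and list medians were also taken without probe sets ending in _s_at, _x_at, _a_at or _f_at, and with a gene's median probe set ratio. The ratio procedure was run on simulated data with a constant shift and constant noise, which checks the code and not the spread of these arrays. The motif search read RefSeq promoters, matched by Entrez identifier. Python 3.11.15 with numpy 2.4.6, pandas 2.3.3, statsmodels 0.14.6 and matplotlib 3.10.9 was used.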

Additional observations from a re-analysis of the deposited data

How the results depend on the processing

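The count of dehydrogenases at least 1.5-fold higher was 1 and became 0 without centring and with a pseudocount of 50. The count at least 1.5-fold lower was 1 and became 0 with a pseudocount of 50. A pseudocount shrinks ratios by construction, and leaving out the centring takes 0.12 from each. The count past 2-fold was 0 in every alternative run. The median of the dehydrogenases ranged from -0.17 to -0.02 and stayed negative. No centring and centring on control probe sets only lower this median, so these runs could not turn its sign. Of the other lists, the retinol list had the widest range, from -0.235 with no floor, where unmeasured genes enter, to 0.08. With 1 array per diet no replicate could be left out. No paired analysis was possible because each diet had 1 array. All 8 probe sets were above both floors, but the 2 past 1.5-fold, Adh4 and Aldh1a1, had the lowest signals of the 8. The robust SD among probe sets of like signal was 0.21 for Adh4 and 0.23 for Aldh1a1, against 0.16 for Adh1, the brightest. The number of arrays limits every value.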
